A study of Mus musculus with 6 samples.

Results

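The Notch receptors, ligands and target genes described here are the 10 mouse genes Notch1, Notch2, Notch3, Notch4, Dll1, Dll4, Jag1, Jag2, Hey1 and Hes1. They were found by matching the mouse Ensembl identifiers of the count table to these symbols, which gave 1 row for each of the 10 among 55401 rows. The series measured poly(A) RNA in ADC106, a mouse angiosarcoma line (a malignant tumour of vessel-lining cells). One group of 3 libraries came from cells transfected with a microRNA mimic labelled NC, with the genotype given as WT, and the other group of 3 from cells transfected with an miR-497 mimic, with the genotype given as miR-497 overexpression. Both mimics were used at 12.5 nM and RNA was taken at day 3, and the comparison asks which transcripts change with miR-497. All libraries come from 1 cell line, and the labels do not say whether the 3 libraries of a group came from separate cultures, so the p-values measure only the spread between these libraries, which may be technical. Total counts ranged from 25777676 to 36159499 per library.

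Notch proteins are single-pass receptors at the cell surface that are switched on by ligands on a neighbouring cell. The ligand pulls on the receptor, ADAM metalloproteases and then gamma-secretase cut it, and the freed intracellular domain enters the nucleus, where it joins Rbpj and Maml coactivators and turns on genes such as those of the Hes and Hey families. In blood vessels, Dll4 on sprouting tip cells acts through Notch1 on the cells behind them and limits sprouting, Jag1 can oppose Dll4 in this setting, and Notch4 is found mainly in endothelium.

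A microRNA pairs through its seed (bases 2 to 8) with sites in the 3' untranslated region (UTR) of transcripts. The mature sequences below show the seed that miR-497-5p shares with its relatives. They are from RefSeq (GRCm38.p6, 5′ to 3′, seed in capitals); the sequence of the mimic itself is not given in the sources used here.
mmu-miR-497a-5p: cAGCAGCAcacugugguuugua
mmu-miR-195a-5p: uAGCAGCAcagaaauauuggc
mmu-miR-16-5p: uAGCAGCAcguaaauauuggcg

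A site was the letters TGCTGCT (7mer-m8, or 8mer when an A follows) or GCTGCTA (7mer-A1) on the transcript's own strand, in the longest 3' UTR of a gene's protein-coding transcripts. Of the 10 Notch genes, Dll1 and Dll4 held such a site. The share was 28.1% among the 12859 tested genes with an annotated 3' UTR, that is 3617 genes. Dll4 had 1 site, which starts at base 102 of a 3' UTR of 1329 bases, and Dll1 had 2 sites, at bases 68 and 105 of 676. They are shown with the 14 bases before them, since these are the bases that a bound microRNA could also touch (GRCm38, transcript strand, 5′ to 3′, site in capitals).
Dll4, chr2:119334721-119334741, plus strand: tttagtatgcacagTGCTGCT
Dll1, chr17:15367956-15367976, minus strand: atagccccgatgaaTGCTGCT
Dll1, chr17:15367919-15367939, minus strand: ggaaacccagggacTGCTGCT

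The other 8 Notch genes held no 7mer or 8mer in the 3' UTR, and Notch2, Jag2 and Hey1 held 1 shorter match each, the 6 letters common to both kinds of site. In the coding sequence a 7mer or 8mer was present in 9 of the 10, from 1 in Dll4, Hey1 and Hes1 to 6 in Notch3 and 7 in Jag2, and Jag1 had 0. A match in the coding sequence was present in 39.9% of the 12859 genes. The coding sequences of the 4 receptors are 5892 to 7593 bases long, and the share was not matched for length.

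With miR-497, transcripts of 5 of the 10 Notch genes fell (Notch3, Notch4, Dll1, Dll4 and Jag2), those of 2 rose (Notch1 and Jag1), and those of Notch2, Hey1 and Hes1 did not pass the test. In bulk RNA, fewer cells of a type and less RNA per cell cannot be told apart. A gene was called when its p-value from edgeR's quasi-likelihood test, with the Benjamini-Hochberg adjustment taken across the 14661 tested genes, was under 0.05. Under the same rule 26.0% of tested genes were lower and 23.8% higher, so that 49.8% of the tested genes were called in either direction. All 10 Notch genes passed the filter on low counts. Their median log2 fold change was -0.22, against -0.02 over all genes tested. Levels are given in CPM (read counts relative to the library total, with libraries scaled by TMM), and each fold change is miR-497 over NC.

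**Figure D1:**
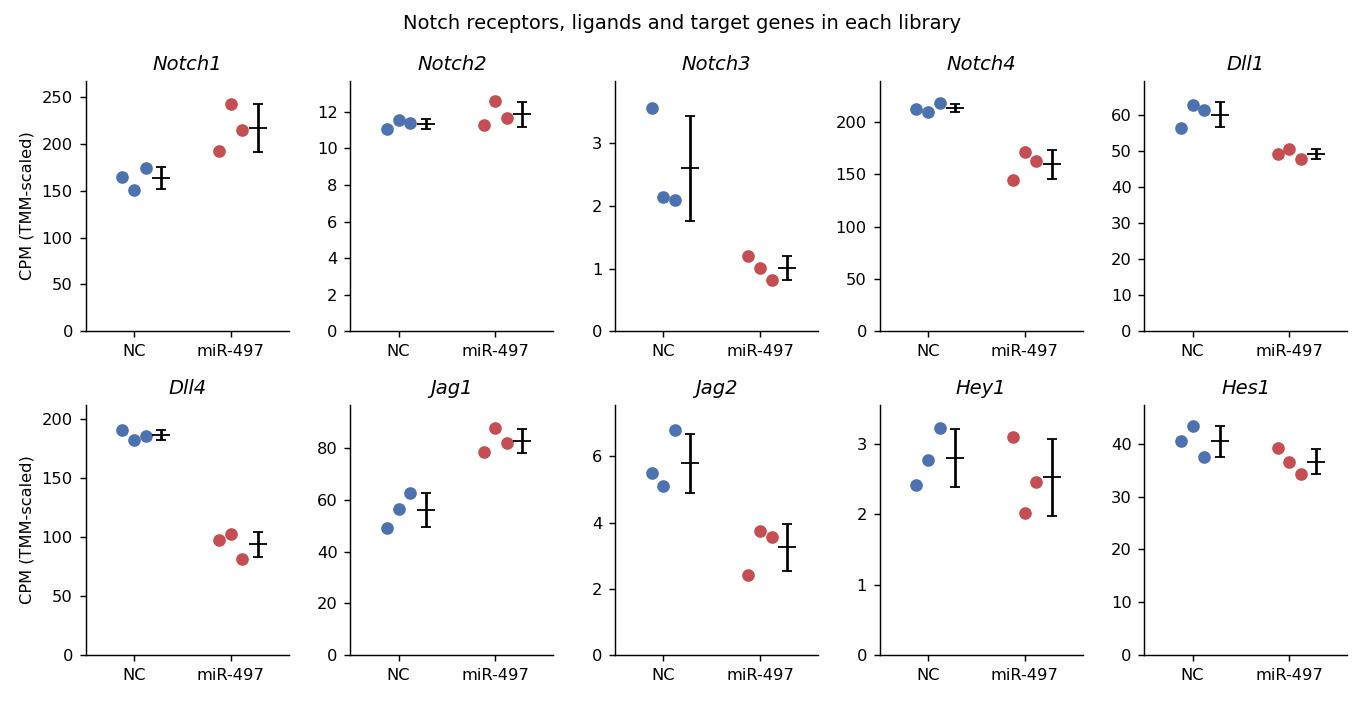
Level of each of the 10 Notch genes in CPM (vertical axes, linear, each from 0) in the 3 NC and the 3 miR-497 libraries; points are libraries and the bar beside them is the mean with its SD. The miR-497 points of Dll4 lie between 81.6 and 102 CPM, below the NC points at 182 to 191, while those of Jag1 and Notch1 lie above NC.

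Among the receptors, Notch1 and Notch4 moved in opposite directions. Notch1 (ENSMUSG00000026923, chr2:26457903-26516663, minus strand), the main receptor of Dll4 in endothelium, measured 165, 151 and 174 CPM in NC libraries 1 to 3 and 192, 243 and 215 CPM in miR-497 libraries 1 to 3. All 3 miR-497 values lay above all NC values. Notch1 rose 1.33-fold, from 163 ± 11.7 to 217 ± 25.4 CPM (SD, n = 3); the log2 change was 0.41 with an SE of 0.0748 (adjusted p = 0.000211 by edgeR). Exons of genes on the opposite strand cover 9.76% of its exon bases; of these genes, 0610009E02Rik had 12 to 54 counts per library, against 4824 to 7713 for Notch1, and Gm13568 had 0.

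Notch4 (ENSMUSG00000015468, chr17:34564268-34588503, plus strand) measured 213, 209.6 and 218 CPM in NC libraries and 144, 171 and 163 CPM in miR-497 libraries. The groups did not overlap. Notch4 fell 1.34-fold, from 213 ± 4.12 to 159.6 ± 13.98 CPM (SD, n = 3); the log2 change was -0.42 with an SE of 0.0609 (adjusted p = 2.25e-05 by edgeR). Groups that did not overlap in CPM were found for 57.4% of all genes tested (29.6% lower and 27.8% higher with miR-497) and for 7 of the 10 Notch genes.

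Notch3 (ENSMUSG00000038146, chr17:32120820-32166852, minus strand), a receptor best known from the mural cells that wrap vessels, was the least abundant receptor. It had 118, 78 and 59 counts in NC libraries and 30, 32 and 25 counts in miR-497 libraries, or 3.56, 2.14 and 2.10 CPM against 1.19, 1.01 and 0.820 CPM. NC library 1 lay above the other NC libraries, and no miR-497 value reached the NC range. Notch3 fell 2.59-fold (log2 change -1.37 with an SE of 0.323, adjusted p = 0.00194 by edgeR), and it was the only one of the 10 to be called with a fall of at least 2-fold; 5.19% of the genes tested were. Without NC library 1 its log2 fold change was -1.09.

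Notch2 (ENSMUSG00000027878, chr3:98013527-98150361, plus strand), a broadly expressed receptor, measured 11.0, 11.6 and 11.4 CPM in NC libraries and 11.3, 12.6 and 11.7 CPM in miR-497 libraries. The groups overlapped, and the estimated fold change of 1.05 had a 95% interval of 0.894 to 1.23 (adjusted p = 0.642 by edgeR). In the 4 receptors, then, 1 rose, 2 fell and 1 did not pass the test.

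Levels of different genes were compared only per length, as CPM per kilobase of merged exons. In NC libraries Notch4 was the most abundant receptor at 26.5 ± 0.511 CPM per kilobase, followed by Notch1 at 11.47 ± 0.825, Notch2 at 1.05 ± 0.0246 and Notch3 at 0.321 ± 0.103 (SD, n = 3), with no overlap between neighbours. With miR-497 the order was the same, but Notch4 (19.8 ± 1.73) and Notch1 (15.2 ± 1.79) lay closer together. Notch1 made up 27.9 to 30.1% of the summed receptor level in NC libraries and 41.4 to 43.1% in miR-497 libraries, while the share of Notch4 was 66.6 to 68.6% and 53.7 to 55.4%. The shares did not overlap between groups for either receptor, and they were not tested. All annotated exons of Notch1 span 14232 bases and its longest coding transcript 9488. With the latter length, a choice made after the data were seen, the level of Notch1 in NC libraries was 17.2 CPM per kilobase and its mean share 33.7% in NC and 47.2% in miR-497 libraries.

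**Figure D2:**
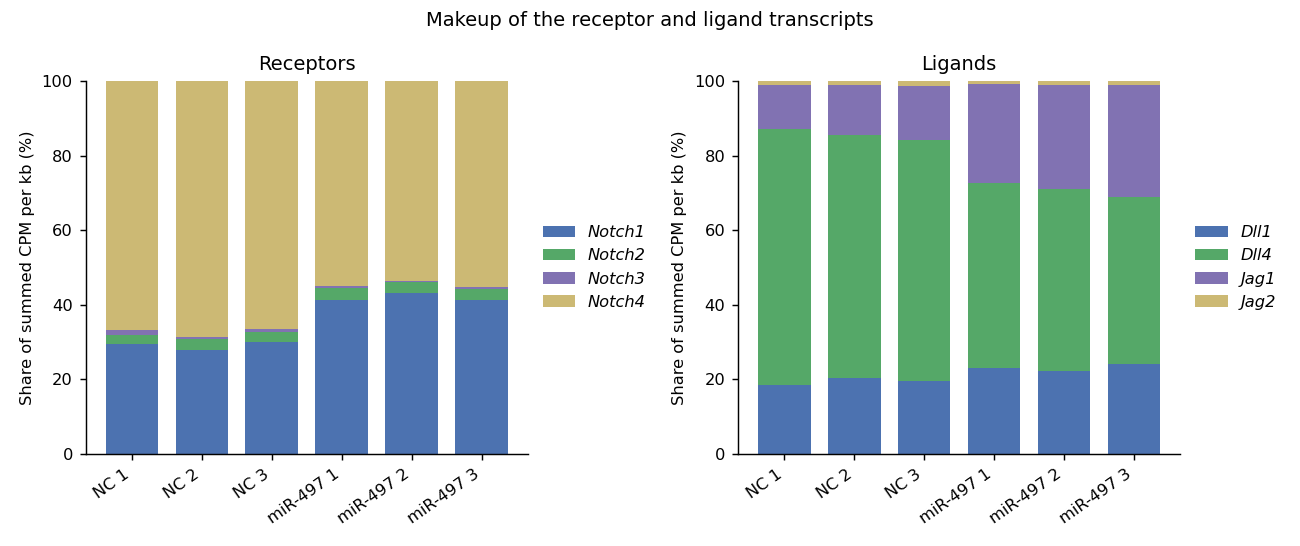
Share of each receptor (left) and each ligand (right) in the summed CPM per kilobase of its role, in percent, for each of the 6 libraries; each bar is 1 library and adds to 100%. Notch1 takes 41.4 to 43.1% of the receptor sum in miR-497 libraries against 27.9 to 30.1% in NC libraries, and Jag1 takes 26.5 to 29.9% of the ligand sum against 11.7 to 14.4%.

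All 4 ligand genes were called, Dll4, Jag2 and Dll1 lower and Jag1 higher with miR-497. Dll4 (ENSMUSG00000027314, chr2:119325784-119335962, plus strand), the main Notch ligand of arterial and sprouting endothelium, measured 191, 182 and 186 CPM in NC libraries and 97.2, 102 and 81.6 CPM in miR-497 libraries. The highest miR-497 value was far below the lowest NC value. Dll4 fell 1.99-fold, from 186 ± 4.36 to 93.6 ± 10.7 CPM (SD, n = 3); the log2 change was -0.99 with an SE of 0.0692 (adjusted p = 4.8e-09 by edgeR), the smallest adjusted p-value of the 10. Its 3' UTR carries the single 7mer-m8 printed above. An opposite-strand gene, Gm14207, covers 5.56% of its exon bases and had 38 to 90 counts per library, against 2443 to 6653 for Dll4.

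Dll1 (ENSMUSG00000014773, chr17:15367354-15376872, minus strand), a second ligand of the Delta type that acts in arterial endothelium among other tissues, measured 56.3, 62.7 and 61.3 CPM in NC libraries and 49.3, 50.6 and 47.7 CPM in miR-497 libraries. The groups did not overlap, although the lowest NC value and the highest miR-497 value lay close together. Dll1 fell 1.22-fold (log2 change -0.29 with an SE of 0.0668, adjusted p = 0.00164 by edgeR), less than Dll4. It carries 2 of the 3 sites printed above, and the part of the sites in either fall was not tested. An opposite-strand gene covers 20.6% of the exon bases of Dll1, and no source used here states whether reads were counted by strand.

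The Jagged ligands moved apart. Jag1 (ENSMUSG00000027276, chr2:137081456-137116644, minus strand) measured 49.3, 56.6 and 62.6 CPM in NC libraries and 78.4, 87.7 and 82.1 CPM in miR-497 libraries. Every miR-497 library was above every NC library, and Jag1 rose 1.48-fold, from 56.1 ± 6.67 to 82.7 ± 4.68 CPM (SD, n = 3); the log2 change was 0.56 with an SE of 0.0791 (adjusted p = 1.6e-05 by edgeR). Jag2 (ENSMUSG00000002799, chr12:112907819-112929776, minus strand) measured 5.49, 5.09 and 6.78 CPM in NC libraries and 2.43, 3.75 and 3.58 CPM in miR-497 libraries. These groups did not overlap either, and Jag2, with 61 to 191 counts per library, fell 1.77-fold (log2 change -0.82 with an SE of 0.21, adjusted p = 0.00356 by edgeR).

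The makeup of the ligand transcripts differed between the groups. Dll4 made up 64.8 to 68.7% of the summed ligand level per kilobase in NC libraries and 45.0 to 49.8% in miR-497 libraries, and Jag1 made up 11.7 to 14.4% and 26.5 to 29.9%. The summed level of the 4 ligands was 73.1 ± 1.24 CPM per kilobase with NC and 50.6 ± 3.50 with miR-497 (SD, n = 3), without overlap. For the 4 receptors the sums were 39.3 ± 1.32 and 36.2 ± 3.54, which overlapped.

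Ratios within each library were compared by a 2-sided exact permutation test. With 3 libraries against 3 the smallest p this exact test can give is 0.1, so none of the 4 ratios could pass a threshold of 0.05. Dll4 over Jag1 was 5.04 with NC and 1.71 with miR-497 (geometric means per kilobase), a log2 difference of -1.56, with log2 ratios of 2.17 to 2.55 in NC and 0.59 to 0.91 in miR-497 libraries (exact permutation p = 0.1, adjusted over the 4 ratios 0.133). Jag1 over Jag2 was 11.6 and 31.0, a log2 difference of 1.41, and Notch1 over Notch2 was 10.9 and 13.8, a log2 difference of 0.34 (exact permutation p = 0.1 and adjusted 0.133 for each). In these 3 ratios the groups did not overlap. The ratio Hey1 over Hes1 overlapped, with 0.0429 and 0.0424 (log2 difference -0.02, exact permutation p = 1).

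Neither target gene passed the test. Hes1 (ENSMUSG00000022528, chr16:30064384-30067796, plus strand), a transcriptional repressor of the basic helix-loop-helix type and a direct target of the Notch intracellular domain, measured 40.6, 43.4 and 37.5 CPM in NC libraries and 39.2, 36.5 and 34.4 CPM in miR-497 libraries. The groups overlapped; the estimated fold change was 0.904, with a 95% interval of 0.807 to 1.01 (log2 change -0.15 with an SE of 0.0771, adjusted p = 0.128 by edgeR). Hey1 (ENSMUSG00000040289, chr3:8663359-8667256, minus strand), a related repressor that Notch induces in endothelium, measured 2.41, 2.77 and 3.23 CPM in NC libraries and 3.10, 2.01 and 2.46 CPM in miR-497 libraries. With 64 to 101 counts per library, its estimated fold change of 0.899 had a 95% interval of 0.619 to 1.30 (adjusted p = 0.646 by edgeR), so a modest change in either direction was not detectable at this depth.

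Across all 10 genes, the order of the levels per kilobase in NC libraries was Dll4 (48.4), Notch4 (26.5), Hes1 (19.9), Dll1 (14.3), Notch1 (11.47), Jag1 (9.64), Notch2 (1.05), Hey1 (0.859), Jag2 (0.831) and Notch3 (0.321). Only Notch1 with Jag1 and Hey1 with Jag2 overlapped as neighbours in that order. With miR-497 the first 5 places went to Dll4 (24.3), Notch4 (19.8), Hes1 (18.004), Notch1 (15.2) and Jag1 (14.2), with overlap between each pair of neighbours among the 5, and Dll1 (11.7) came after them without overlap. The order depended on the length used. With the longest coding transcript in place of all exons, Notch1 (17.2) came before Dll1 (16.8) in NC libraries, and Hey1 (1.16) and Jag2 (1.13) came before Notch2 (1.079). With miR-497 on that scale, Hes1 (24.98) came before Notch4 (24.2) and beside Dll4 (24.99).

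The pattern of Dll4, the Notch gene with the smallest p-value, was compared with those of 10333 other tested genes with a mean log2 CPM of at least 2. Likeness was the mean absolute difference, over the 6 libraries, of log2 CPM relative to the NC mean. The closest were Bub1 at 0.0274, Ncapd3 at 0.0333 and Tor1aip1 at 0.0335 on the log2 scale. Their log2 fold changes were -1.002, -0.95 and -0.96. Since these genes were chosen for likeness to Dll4, falls near that of Dll4 follow from the choice.

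The rest of the pathway was described by lists of 66 genes grouped by role. Of these, 57 passed the filter on low counts, and 23 were higher, 11 lower and 23 not called, with a median log2 fold change of 0.09. The background of 23.8% higher and 26.0% lower applies here too.

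**Figure D3:**
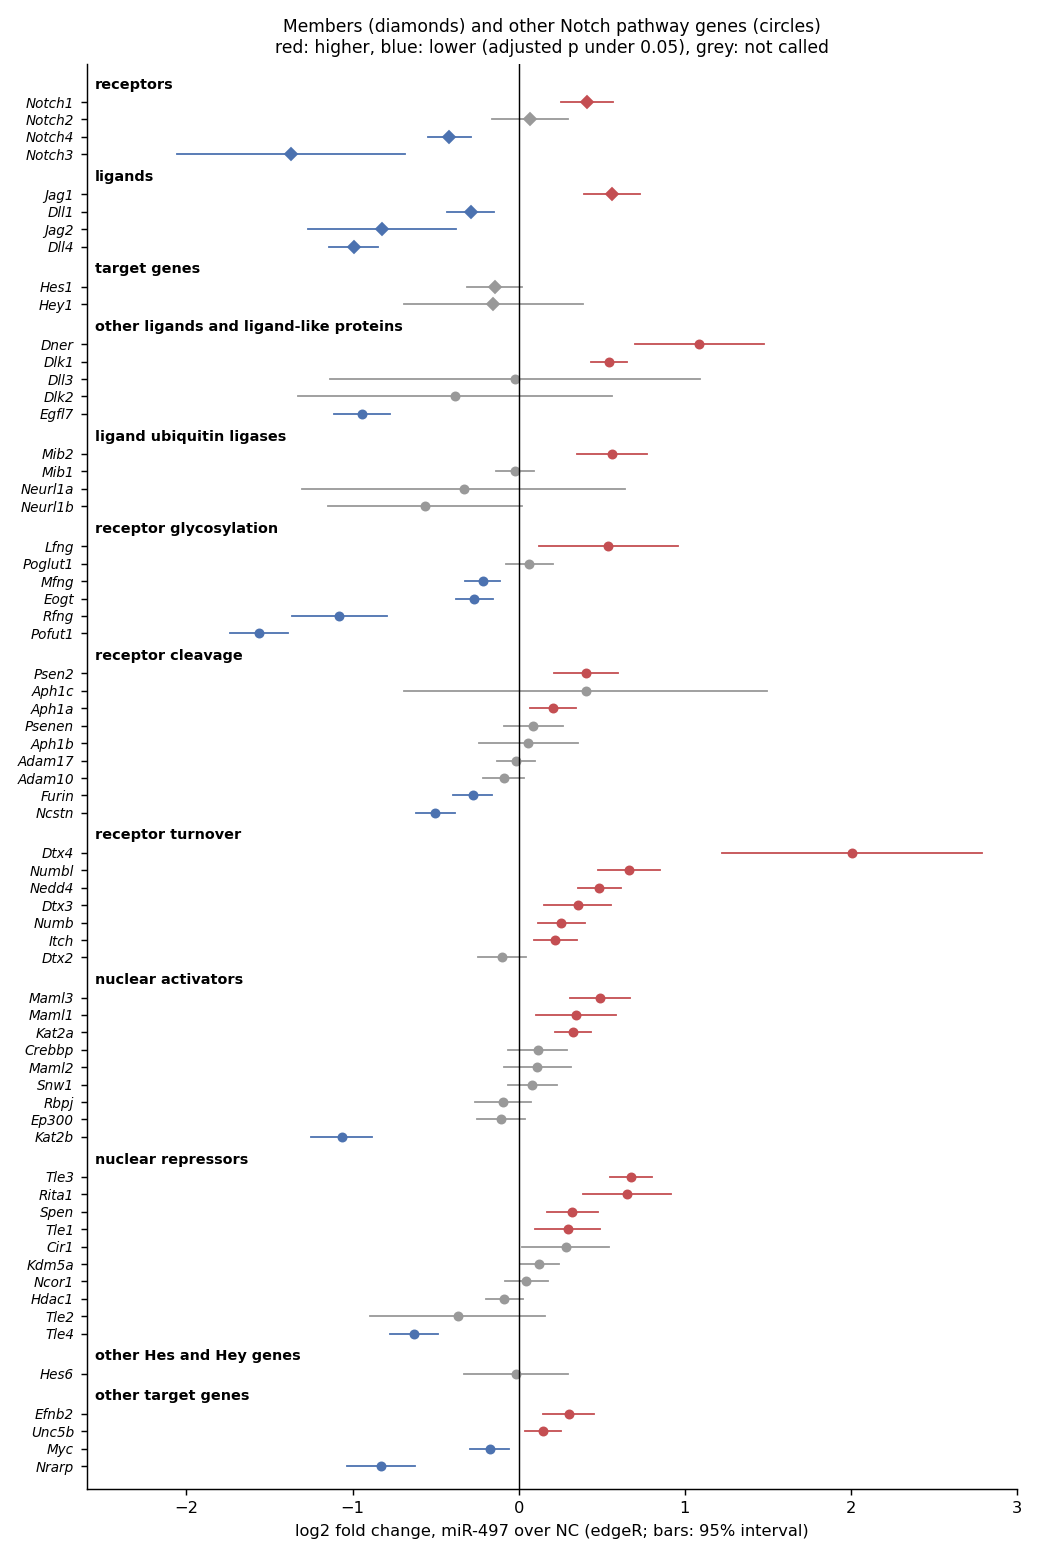
Log2 fold change of miR-497 over NC (horizontal axis) with its 95% interval for the 10 Notch genes (diamonds) and the tested genes of the pathway lists that are reported by name (circles), grouped by role. Among the receptor turnover genes 6 of 7 lie to the right of 0 and were called, while 4 of 6 receptor glycosylation genes were called to the left of 0.

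Glycosylation prepares the receptor to bind ligands. Of 6 genes for receptor glycosylation, Pofut1, Rfng, Eogt and Mfng fell, Lfng rose and Poglut1 did not pass the test, with a list median of -0.24. Pofut1, which adds the O-fucose that Notch needs in order to bind its ligands, measured 70.3, 70.7 and 78.2 CPM in NC libraries and 25.6, 26.7 and 21.9 CPM in miR-497 libraries. The groups lay far apart, and Pofut1 fell 2.95-fold (log2 change -1.56 with an SE of 0.0817, adjusted p = 1.58e-10 by edgeR), the smallest p-value among the pathway genes.
Rfng, a Fringe enzyme that extends O-fucose, went from 12.5 ± 1.01 to 5.88 ± 0.706 CPM (SD, n = 3), a fall of 2.11-fold (adjusted p = 4.04e-06 by edgeR).

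Of 10 genes for receptor cleavage, which hold Furin, the ADAM proteases and the gamma-secretase subunits, 3 rose (Psen2 and Aph1a among them), Ncstn and Furin fell, and 5 did not pass the test, Adam10 and Adam17 among them. Ncstn, the gamma-secretase subunit nicastrin, went from 231 ± 3.43 to 163 ± 10.2 CPM (SD, n = 3), a fall of 1.42-fold (adjusted p = 1.02e-06 by edgeR). Opposite-strand exons of Copa cover 4.91% of its exon bases.

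Receptor turnover was the list with the largest share of rises among the lists with at least 2 tested genes. Of 7 tested genes 6 rose (Numb, Numbl, Itch, Nedd4, Dtx3 and Dtx4) and 0 fell, with a median of 0.35; Fbxw7, also on the list, was listed at 0 in all 6 libraries, and since it is widely expressed this 0 is not read as absence of the transcript. Numbl, a relative of the Notch inhibitor Numb, went from 15.3 ± 0.657 to 24.2 ± 1.23 CPM (SD, n = 3), a rise of 1.58-fold (adjusted p = 7.72e-06 by edgeR). Nedd4, a ubiquitin ligase with many substrates besides Notch, went from 1394 ± 84.8 to 1951 ± 67.9 CPM (SD, n = 3), a rise of 1.40-fold (adjusted p = 4.57e-06 by edgeR).

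On the ligand side, 1 of 4 ubiquitin ligases rose (Mib2) and 0 fell. Of 5 other ligands and ligand-like proteins, Dlk1 and Dner rose and Egfl7 fell. Dlk1, a Delta-like protein that lacks the domain for activating Notch, went from 137 ± 2.38 to 199 ± 8.82 CPM (SD, n = 3), a rise of 1.46-fold (adjusted p = 2.14e-07 by edgeR). Egfl7, a secreted endothelial protein that can bind Notch, went from 211 ± 15.1 to 109.6 ± 14.8 CPM (SD, n = 3), a fall of 1.92-fold (adjusted p = 4.54e-08 by edgeR). Other genes on the same strand cover 9.41% of its exon bases, so its reads could be split.

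In the nucleus, Rbpj, the DNA-binding partner of the Notch intracellular domain, did not pass the test. Of 9 activators Maml1, Maml3 and Kat2a rose and Kat2b fell. Kat2b, an acetyltransferase, went from 84.5 ± 1.54 to 40.3 ± 6.24 CPM (SD, n = 3), a fall of 2.09-fold (adjusted p = 2.97e-08 by edgeR). Of 11 repressors 5 rose, among them Tle1, Tle3, Spen and Rita1, and Tle4 fell, with a median of 0.28.

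Tle3 and Tle4 are Groucho-type corepressors used by Hes proteins. Tle3 went from 58.7 ± 2.603 to 93.9 ± 2.603 CPM, a rise of 1.599-fold (adjusted p = 7.95e-08 by edgeR), and Tle4 from 41.5 ± 1.35 to 26.8 ± 0.610 CPM, a fall of 1.55-fold (adjusted p = 9.76e-07 by edgeR; SD, n = 3).

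Of 5 other target genes, Efnb2 and Unc5b rose, Nrarp and Myc fell, and Dtx1 was under the filter. Nrarp, a Notch target that feeds back on the pathway, measured 24.1, 26.8 and 27.2 CPM in NC libraries and 13.01, 15.9 and 14.9 CPM in miR-497 libraries. The groups did not overlap, and Nrarp fell 1.78-fold (log2 change -0.83 with an SE of 0.0961, adjusted p = 1.88e-06 by edgeR). Opposite-strand exons of Gm38287 cover 79.4% of the exon bases of Nrarp, so its reads could be shared if strand was not used in counting. Of the 8 other Hes and Hey genes, only Hes6 passed the filter, and it was not called.

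Sites for miR-497-5p were then set beside these changes. Of the 57 tested pathway genes, 22 (38.6%) held a 7mer or 8mer in the 3' UTR; 7 of the 22 were lower and 7 higher, with a median log2 fold change of -0.06. Of the 35 without a site, 4 were lower and 16 higher, with a median of 0.14. Over all tested genes the medians were -0.17 with a site and 0.02 without. Among the 10 Notch genes, both with a site fell, and Notch3, Notch4 and Jag2 fell without one.

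The sites of 4 of the 7 lower pathway genes with a site are shown to compare with those of Dll1 and Dll4. The lower genes with a site that are not shown are Kat2b, Furin and Eogt. Kat2b, at a log2 fold change of -1.07, held 2 sites, a 7mer-A1 and a 7mer-m8. Sites were also present in 7 higher pathway genes, which are not shown. Pofut1 had 4 sites in its longest 3' UTR, 2 of them overlapping, and 0 in its shortest; the last is shown. The 8mer of Tle4 was the only 8mer among the called pathway genes (GRCm38, transcript strand, 5′ to 3′, site in capitals).
Pofut1, chr2:153270056-153270076, plus strand: gactgctctgcagcTGCTGCT
Nrarp, chr2:25182929-25182949, plus strand: ccccttcgtagaagTGCTGCT
Tle4, chr19:14448473-14448494, minus strand: atgtacagtgccttTGCTGCTA
Ncstn, chr1:172066445-172066465, minus strand: ctatggtagagactTGCTGCT

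**Figure D4:**
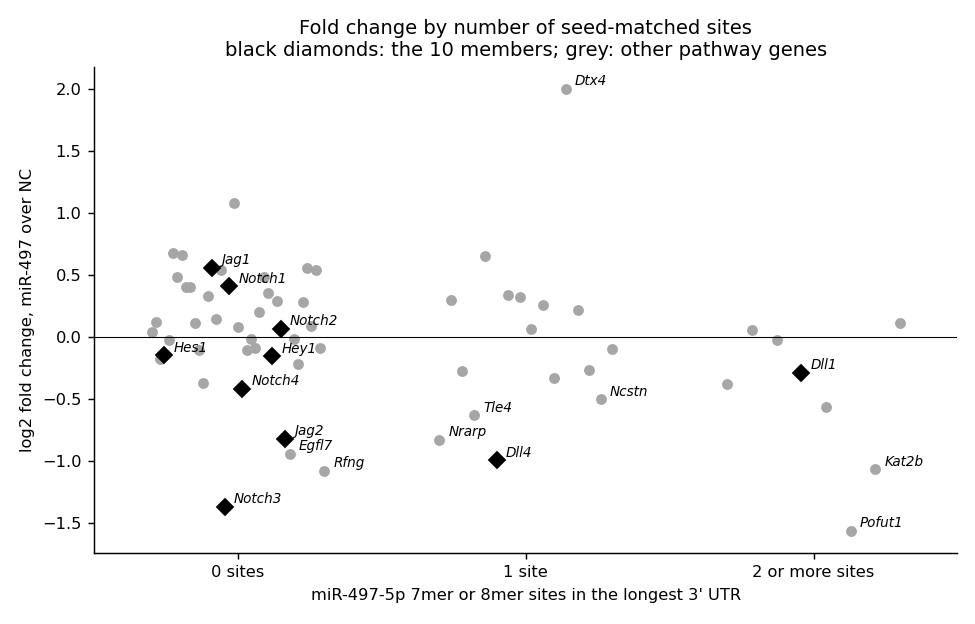
Log2 fold change of miR-497 over NC (vertical axis) for the 10 Notch genes (black diamonds) and the same tested pathway genes (grey circles), split by 0, 1 or at least 2 sites of 7 or 8 letters in the longest 3' UTR; the horizontal spread within a class has no meaning. Dll4 at -0.99 and Dll1 at -0.29 are the only Notch genes with a site, and Dtx4 at 2.00 rose with 1 site.

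The endothelial identity of the cells was checked on 12 markers. All 12 passed the filter, with summed levels of 9813 to 10524 CPM in NC and 9293 to 9831 CPM in miR-497 libraries. Of the 12 markers 7 rose and 4 fell, against 23.8% higher and 26.0% lower of all genes tested. The sums hide single markers that moved. Pecam1 fell from a mean of 3554 to 2471 CPM, and Flt1, Eng and Esam fell too. Among the 7 that rose, Emcn went from a mean of 373 to 764 CPM. Markers of immune cells (6 genes, with Cd3e at 0) summed to 9.34 to 9.71 and 15.7 to 20.97 CPM, and epithelial markers (5 genes) to 0.466 to 1.18 and 0.394 to 1.15 CPM. Mural cell markers (6 genes, 1 of 5 tested higher and 1 lower, none at 0) summed to 106 to 112 and 116 to 142 CPM, and fibroblast markers (5 genes, 2 of 3 tested higher, with Lum at 0) to 228 to 244 and 403 to 476 CPM. The fibroblast, mural and immune sums were higher in all miR-497 libraries, but the rises came mainly from a few genes. Cd68 went from a mean of 8.25 to 17.5 CPM, while Csf1r was not called and the other immune genes were under the filter. Acta2 rose from a mean of 37.1 to 70.3 CPM, while Pdgfrb fell from 52.8 to 40.8 CPM. Of the fibroblast markers, Col1a1 and Col1a2 rose and Pdgfra was not called. The part of these sums in the changes of the Notch genes was not tested.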

How the data were processed

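The authors deposited unnormalized counts, 1 whole number for each gene in each of the 6 libraries. STAR 2.5.4b, featureCounts, Subread 1.6.1, edgeR 3.32.1 and the build GRCm38 are named in the submitters' processing notes, without roles; the annotation release, the strand setting and the handling of multiply aligned reads are not given in the sources used here. Reads shared between genes can therefore be lost or split.

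Symbols, exon lengths, 3' UTRs and coordinates came from GENCODE M21 (GRCm38), which matched 55141 of 55401 identifiers. Counts were tested with edgeR 4.0.16 in R 4.3.3 (filterByExpr with its count limit at 10 and total limit at 15, TMM, quasi-likelihood F-test, group as the only term), with Benjamini-Hochberg adjustment across every tested gene. The standard error is the log2 fold change divided by the square root of F. Alternatives were other scalings, filters, DESeq2 1.42.0, limma 3.58.1 voom, GC and length offsets, the replicate block and each library left out. Pathway genes with values are the 12 with the smallest p; some genes of the lists are counted but not reported by name here. The Notch genes and lists were chosen with earlier results of these data known.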

Additional observations from a re-analysis of the deposited data

How the results depend on the processing

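The 10 Notch genes kept their direction and their side of the threshold under all 15 alternatives, as did the 12 pathway genes with the smallest p (330 of 330 pairs of gene and alternative). The counts of 5 lower and 2 higher Notch genes were the same in each. For pathway genes the counts ran from 19 to 25 higher and 10 to 13 lower, and over all genes from 3029 to 3998 higher and 3374 to 3995 lower. The replicate numbers are shared by the groups. With the replicate number as a block, 22 pathway genes were higher and 11 lower, and 3177 and 3563 of all genes. The deviations of same-numbered libraries correlated at -0.12, -0.04 and -0.13, so the numbers gave no sign of pairing.

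Leaving out single libraries moved the log2 difference of Hey1 over Hes1 between -0.13 and 0.14, so its sign is not settled; it was positive without NC library 3 or without miR-497 library 2. The fold change of Hey1 ran from -0.32 to -0.01 on the log2 scale in these fits. The low counts of Notch3, Jag2 and Hey1 limit their precision. The shortest annotated 3' UTR of each Notch gene is as long as the longest, so the choice of 3' UTR could not be tested for them. Lengths and GC content were known for 99.9% of tested genes.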

Other observations

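Dtx4 and Dner were picked out after their values were seen. Dtx4, one of the Deltex ubiquitin ligases that act on Notch, had 20, 23 and 55 counts in the NC group and 118, 112 and 132 counts with miR-497. It rose 4.01-fold (log2 fold change 2.00, SE 0.37, adjusted p = 0.000238 by edgeR), more than any other tested gene of the pathway lists, and its 3' UTR holds 1 site for miR-497-5p. NC library 3, at 1.95 CPM, lay above NC libraries 1 and 2, at 0.603 and 0.630 CPM. Without it the rise was 6.78-fold (log2 2.76), and with any other library left out it was at least 3.28-fold (fits added after the data were seen). Dner, a neuronal protein described as a Notch ligand, measured 2.87, 3.18 and 3.59 CPM in NC libraries and 5.97, 7.65 and 6.76 CPM in miR-497 libraries, a rise of 2.12-fold (adjusted p = 0.000101 by edgeR). Heyl, a Hey family gene under the filter on low counts, had 9, 17 and 10 counts in the NC group, against 3, 5 and 0 with miR-497. The counts of other Hes, Hey and target genes under the filter were mixed. Hes7 had 7, 7 and 0 counts in the NC group against 6, 4 and 1 with miR-497. Hey2 had 0, 0 and 5 against 0, 0 and 0, and Hes2 had 0, 0 and 0 against 3, 0 and 0. Hes3 had 0, 5 and 0 counts in the NC group against 2, 4 and 9 with miR-497, and Dtx1 had 3, 0 and 0 against 8, 5 and 4. Heyl, Hes7, Hey2, Hes2, Hes3 and Dtx1 were not tested, so no direction is read from their counts. Hes5 and Helt were listed at 0 in all 6 libraries.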
